A study of Homo sapiens with 6 samples.

Results

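The genes described here are 54 human genes of the interferon response and the sensors of foreign RNA and DNA that set it off. They were listed by symbol, and a probe set was taken for a gene where the platform annotation gave that gene as its only symbol. Such a probe set was found for 52 of the 54 genes, among 19775 genes with one on the array, and these 52 had 108 of the 54613 probe sets that were not controls. STAT2 and DHX60 had none and were not analysed here. Kasumi-1 is a human acute myeloid leukaemia cell line that carries the t(8;21) translocation. RNA came from cells of this single line after 24 h with 20 nM homoharringtonine (HHT, 3 arrays) or after 24 h with vehicle (3 arrays). HHT, first isolated from plum yews, keeps the ribosome from elongating new proteins and is a drug against myeloid leukaemias. Each group has arrays numbered 1 to 3, and no label says that these were separate cultures, so the p-values measure only how far these samples differ, which may be technical spread.

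Type I interferons bind a receptor made of IFNAR1 and IFNAR2. The kinases JAK1 and TYK2 on that receptor phosphorylate STAT2, which joins IRF9 in the complex ISGF3. ISGF3 binds the interferon-stimulated response element in the promoters of interferon-stimulated genes. In infected cells the chain starts earlier, when RIG-I (RIGI), MDA5 (IFIH1) or a DNA sensor meets foreign nucleic acid and activates IRF3 and IRF7, which switch on interferon genes. The induced proteins degrade, bind or edit viral RNA, and several of them are themselves sensors or factors of the same pathway, so that the response feeds itself.

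Levels are given as the deposited log2 signal, on which 1 unit is a doubling, and they are compared between arrays for the same gene, never between genes. A change is the mean of the 3 HHT arrays minus the mean of the 3 vehicle arrays, with its standard error (SE) from limma, and group means carry the standard deviation (SD, n = 3). A gene was called, and is said to have risen or fallen, at a Benjamini-Hochberg adjusted p under 0.05 over 32768 probe sets. Probe sets below a mean level of 4.80 were not tested. Where all or part of a group lay under it, a fold was computed with 4.80 in place of dimmer arrays. Such a fold is given as "at least", which covers the dim signals and not the spread between arrays. On the 6 arrays the median signal was between 5.53 and 5.77 after HHT and between 5.82 and 5.96 after vehicle. All 18 probe sets for spiked-in hybridisation controls were lower on the HHT arrays, at a mean of 11.70 ± 0.0598 against 11.98 ± 0.0282 (SD, n = 3 each), and scaling by them or by the medians moves every change up by 0.28 or 0.24. Of the markers of the line, KIT, CD34 and MPO were bright in both groups and fell, RUNX1T1, a partner in its fusion gene, was bright and not called (change -0.03), and CD33 was not analysed here. Of 4 monocyte and dendritic cell markers, the array means lay between 3.89 and 4.48 after HHT and between 3.60 and 4.72 after vehicle, with no value at 0. Among these CD14 and CLEC4C were too dim to test, LILRA4 was not called, and IL3RA rose, to 6.64 ± 0.376 after HHT, against 3.91 ± 1.04 after vehicle. As that mean is below 4.80, IL3RA passed the filter through the HHT arrays and the difference is given as at least 3.58-fold (adjusted p = 0.00249). Their part in the results was not tested. As bulk RNA was measured, a change in every cell and a change in the share of cells cannot be told apart.

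Of the 46 genes of the list bright enough to test, 30 rose, 4 fell and 12 were not called. Across all 13572 genes tested, 29.6% rose, 24.2% fell and 53.8% were called either way, while among the 46 the shares were 65.2% and 8.7%. The list and its roles were chosen with earlier results of these data known, and how far that choice shaped its shares and median was not tested. The counts by role below stand beside the same 29.6% and 24.2% of all genes. The median change of the 46 was 1.17 on the log2 scale, with BST2 lowest at -1.23 and IFIT2 at 2.50 highest among genes above the test's level in both groups, beside a median of 0.00 over all genes, and 7.79% of all genes had a change above 1.17. A rise of at least 1 was called for 24 of the 46, against 9.56% of all genes, and a fall of at least 1 for BST2 alone, against 5.94%. All 3 HHT arrays lay above all 3 vehicle arrays for 32 of the 46 genes and below them for 6. The same held for 33.2% and 29.0% of all genes, or 62.2% in either direction. The 6 genes below the test's level were GBP1, IFI27, IFI44L, XAF1, EPSTI1 and CXCL10. With no filter on low signals, 30 of the 52 genes rose and 3 fell, with a median change of 0.97.

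**Figure D1:**
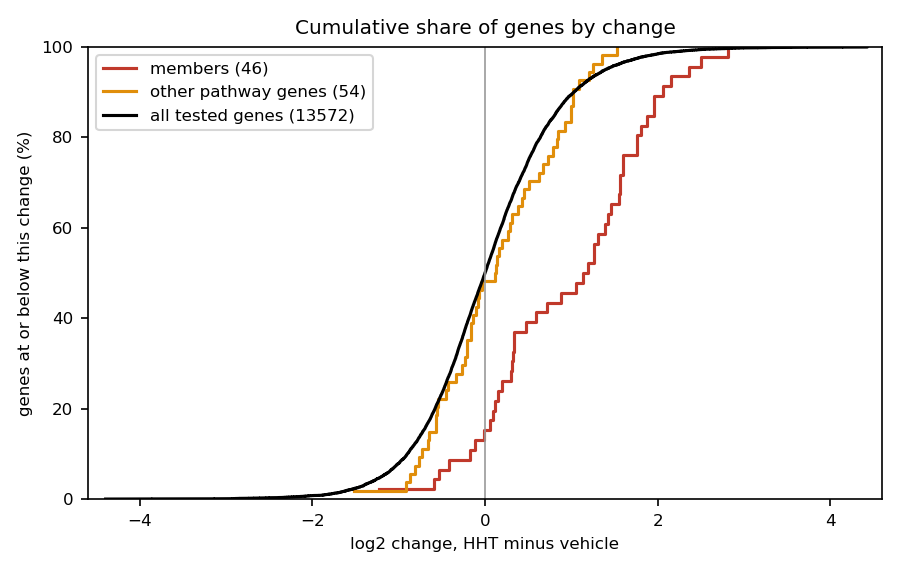
Cumulative share of genes (%, vertical axis) at or below each log2 change, HHT minus vehicle (horizontal axis), for the 46 tested interferon response genes, 54 other genes of the pathway and all 13572 tested genes. The curve of the 46 lies to the right, with a median of 1.17, while the other pathway genes have a median of 0.12 and run close to the curve of all genes. Both lists were chosen with earlier results of these data known.

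Promoter sequences of some of these genes are shown because the response element, where it matches, can be read in them. Of the 54 genes, 41 matched RefSeq promoter windows of GRCh38.p14, which run from 250 bases before to 50 bases after a transcription start. The element was searched as GAAA, any 2 bases, then GAAA, on both strands, so that it reads TTTC, any 2 bases, TTTC on the other strand. It was present in 25 of the 41 genes (61%), against 4.38% of all 27305 genes with a window (3.57% of 35116 windows). By the outcome of the arrays it was present in 14 of 25 genes that rose, in both of the genes that fell and have a window (BST2 and IFITM1), in 4 of 7 that were not called (EIF2AK2, HERC5, IFI6 and MX1) and in 5 of 6 that were not tested. PARP9 and DTX3L, which both rose, lie on opposite strands, and the match counted for each is the same bases. Genes outside the list held the element in 134 of 3345 cases (4.01%) where they rose, 93 of 2692 (3.45%) where they fell and 175 of 4852 (3.61%) where they were not called. The gamma-activated site, searched as TTC, any 3 bases, then GAA, was in 11 of the 41 genes (26.8%), against 9.38% of all genes. The NF-kB consensus was in 8 (19.5%), against 13.3%. A match describes the letters of the window and is no measured binding site. A window without a match may still hold a variant of the element that this fixed pattern misses.

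Below are 180-base windows, 170 bases before the start and the first 10 after it, 5′ to 3′ on the gene's strand, with matches to the response element in capitals. IFIT5, IFIT1, IFIH1, OAS1 and PARP9 are those of the 8 largest called increases that the table holds. BST2, IFITM1 and EIF2AK2 were added, after their values were seen, as genes that fell or were not called. IFIT5 (chr10:89414398-89414577, plus strand) has 3 matches, whose first bases lie at -45, -19 and -4 from the start. IFIT1 (chr10:89392453-89392632, plus strand) has a pair at -116 and -103. IFIH1 (chr2:162318675-162318854, minus strand) has 3, of which those at -159 and -153 overlap. OAS1 (chr12:112906792-112906971, plus strand) has 0 by this pattern, though it holds GAAA, a single base, then GAAA, which the search does not match. PARP9 (chr3:122564291-122564470, minus strand) has 1 at -41 at the start shown, which is 1 of 2. BST2 (chr19:17405621-17405800, minus strand) has 2 that overlap, at -130 and -124. IFITM1 (chr11:313870-314049, plus strand) has 2, at -40 and -6. EIF2AK2 (chr2:37156971-37157150, minus strand) has 1 at -6.
IFIT5: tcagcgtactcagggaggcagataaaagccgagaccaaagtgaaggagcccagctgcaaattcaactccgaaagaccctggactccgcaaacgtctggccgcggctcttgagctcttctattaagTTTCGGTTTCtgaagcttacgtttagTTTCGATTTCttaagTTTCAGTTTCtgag
IFIT1: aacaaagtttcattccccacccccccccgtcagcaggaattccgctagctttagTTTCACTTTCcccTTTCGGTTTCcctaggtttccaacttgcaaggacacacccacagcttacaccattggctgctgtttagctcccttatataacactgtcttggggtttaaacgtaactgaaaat
IFIH1: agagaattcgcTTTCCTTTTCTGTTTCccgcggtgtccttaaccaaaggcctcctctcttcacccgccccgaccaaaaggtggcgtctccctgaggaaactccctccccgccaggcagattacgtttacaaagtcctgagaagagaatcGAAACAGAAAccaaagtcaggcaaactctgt
OAS1: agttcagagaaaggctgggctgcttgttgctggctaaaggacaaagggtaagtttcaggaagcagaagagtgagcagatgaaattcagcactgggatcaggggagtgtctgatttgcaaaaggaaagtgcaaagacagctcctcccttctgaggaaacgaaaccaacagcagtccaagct
PARP9: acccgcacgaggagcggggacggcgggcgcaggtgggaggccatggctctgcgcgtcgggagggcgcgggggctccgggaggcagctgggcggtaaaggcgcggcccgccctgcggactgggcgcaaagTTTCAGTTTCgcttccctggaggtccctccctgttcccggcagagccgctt
BST2: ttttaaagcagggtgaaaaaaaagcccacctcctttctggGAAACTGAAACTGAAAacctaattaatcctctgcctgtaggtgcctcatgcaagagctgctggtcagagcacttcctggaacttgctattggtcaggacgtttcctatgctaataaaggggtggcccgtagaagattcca
IFITM1: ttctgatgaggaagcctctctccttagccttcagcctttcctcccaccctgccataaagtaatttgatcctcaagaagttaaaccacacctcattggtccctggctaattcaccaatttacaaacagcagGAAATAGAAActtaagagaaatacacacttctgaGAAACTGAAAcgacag
EIF2AK2: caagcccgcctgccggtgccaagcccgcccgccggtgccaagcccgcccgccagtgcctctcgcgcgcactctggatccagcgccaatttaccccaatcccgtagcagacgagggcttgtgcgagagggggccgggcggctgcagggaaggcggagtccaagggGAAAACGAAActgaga

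**Figure D2:**
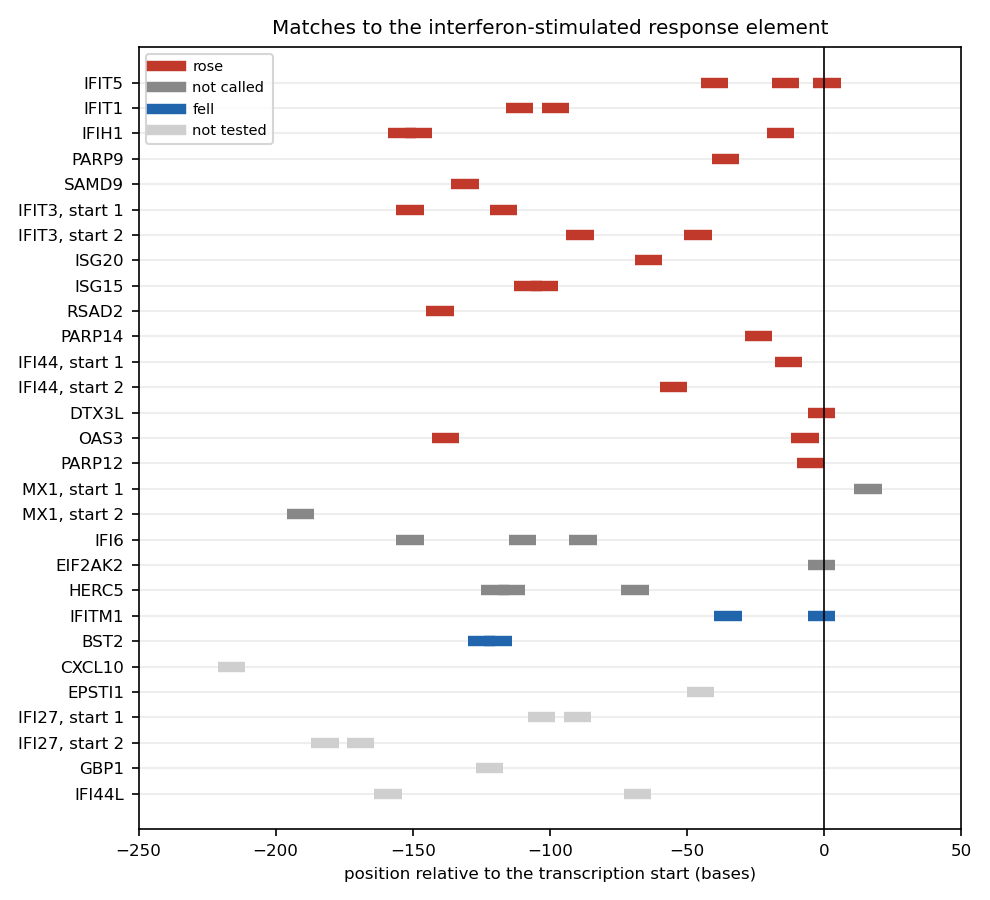
Matches to the interferon-stimulated response element in the promoter windows of 25 interferon response genes, by position in bases from the transcription start (horizontal axis, start at 0). Bars are coloured by whether the gene rose, fell, was not called or was not tested, and matches stand in all 4 kinds of gene.

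Neither chain of the type I interferon receptor was called higher. IFNAR2, the chain that holds JAK1, fell by 0.42 (SE 0.0889, adjusted p = 0.00258). It stood at 9.29, 9.37 and 9.41 on the HHT arrays, against 9.73, 9.86 and 9.75 on the vehicle arrays, so the groups did not overlap. IFNAR1, the chain that holds TYK2, had 9.16, 9.16 and 9.13 after HHT and 9.23, 9.31 and 9.26 after vehicle. All its HHT arrays were lower, but the change of -0.12 was not called (95% interval -0.32 to 0.08, adjusted p = 0.315). The call for IFNAR2 was lost with equal medians (change -0.18, adjusted p = 0.304), with equal hybridisation controls (-0.14, adjusted p = 0.297) and with the mean of its probe sets. The other probe sets of IFNAR2 changed by -0.22 and -0.01 without a call.

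Of the transcription factors that carry the signal, 3 of 4 rose by more than a doubling. IRF9, the DNA-binding part of ISGF3, was at 9.65, 9.46 and 9.40 after HHT, against 7.70, 8.12 and 7.40 after vehicle. This is a rise of 1.76, or 3.40-fold (SE 0.174, adjusted p = 1.30e-05). IRF7, the factor that amplifies interferon production, was at 8.53, 8.46 and 8.32 after HHT, against 6.93, 6.80 and 6.86 after vehicle, 2.97-fold higher (SE 0.153 on the log2 scale, adjusted p = 1.15e-05). For both genes the lowest HHT array was above the highest vehicle array by more than the range within either group. IRF1, a factor that both interferon types induce, rose by 1.20 to 8.86, 8.57 and 8.78 after HHT, against 7.47, 7.56 and 7.59 after vehicle (adjusted p = 3.78e-05). IRF3, which is present before infection and is activated by phosphorylation, had 7.59, 7.88 and 7.76 after HHT and 7.76, 7.74 and 7.53 after vehicle. Its groups overlapped, and the change was 0.06 (95% interval -0.29 to 0.41, adjusted p = 0.773).

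**Figure D3:**
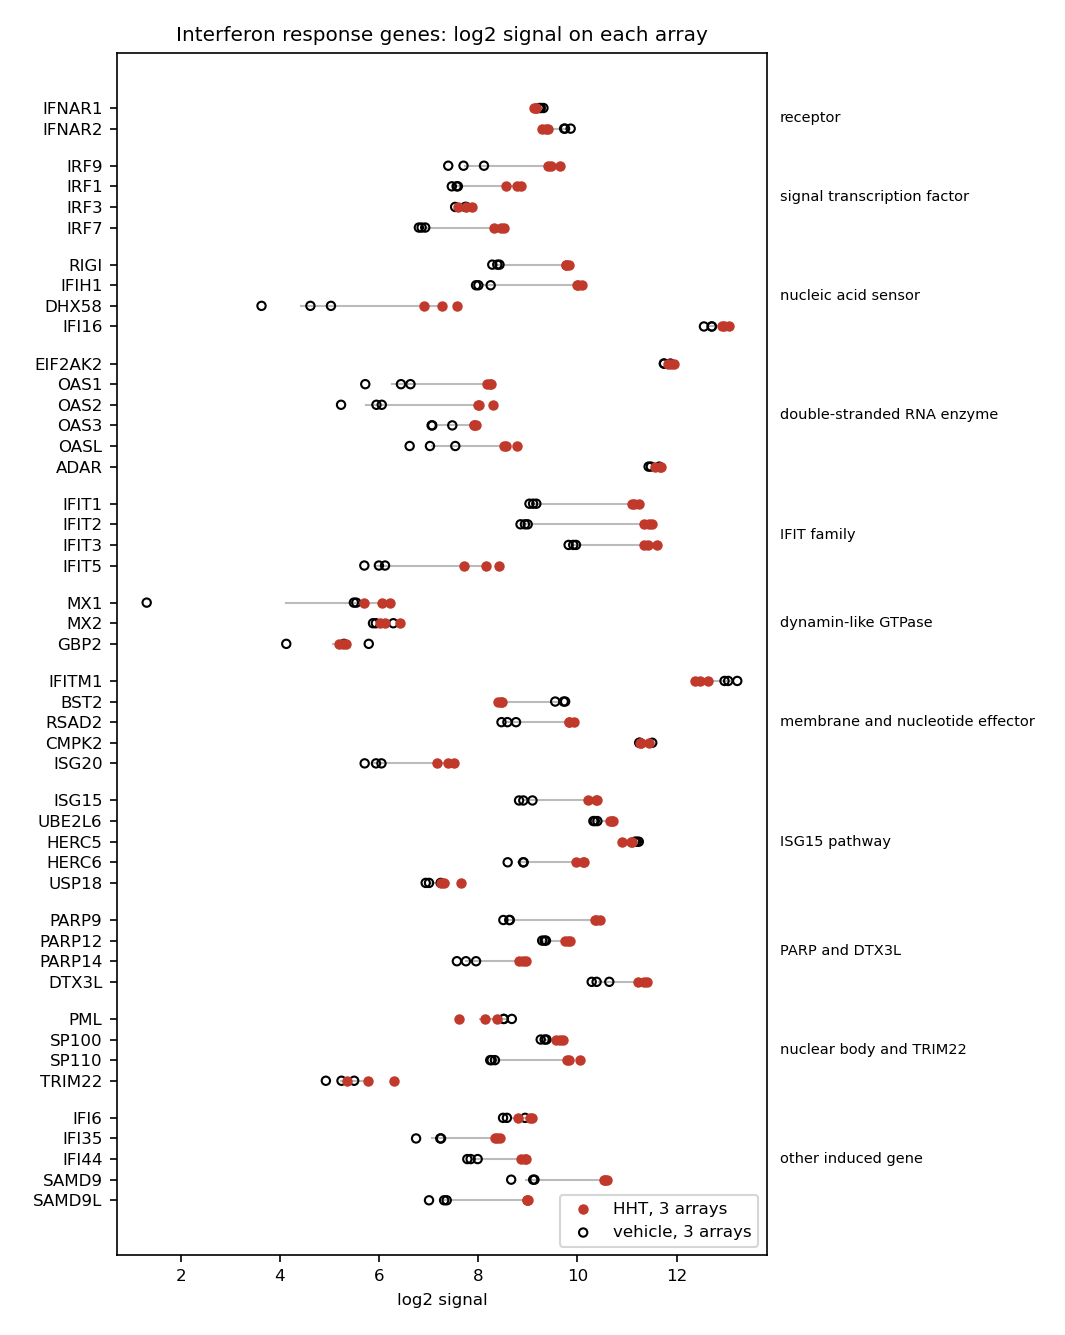
Log2 signal (horizontal axis) of each tested interferon response gene on the 3 HHT arrays (filled) and the 3 vehicle arrays (open), by role, with a line between the group means. IFIT2 lies between 11.34 and 11.51 after HHT and between 8.85 and 9.00 after vehicle, and 1 vehicle array of MX1 lies at 1.32, apart from the rest.

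All 4 sensors of foreign nucleic acid that are on the list and were tested rose, where 29.6% of all genes did. The DNA sensor CGAS, of the further list described below, fell. IFIH1 (MDA5), which binds long double-stranded RNA, was at 10.09, 10.00 and 10.00 after HHT, against 8.00, 8.25 and 7.96 after vehicle, a rise of 1.96, or 3.89-fold (SE 0.111, adjusted p = 3.24e-07). RIGI (RIG-I), which binds RNA ends with a triphosphate, was at 9.82, 9.77 and 9.76 after HHT, against 8.28, 8.38 and 8.43 after vehicle, a rise of 1.42 (SE 0.0975, adjusted p = 1.04e-06). The HHT arrays of each gene lay within a span of less than 0.1, about 1.3 or more above the highest vehicle array. DHX58 (LGP2), the helicase that regulates both of them, was at 7.26, 7.57 and 6.90 after HHT, against 4.62, 5.03 and 3.63 after vehicle. Its vehicle mean of 4.43 was below the level of 4.80, so it passed the filter through the HHT arrays and the difference is given as at least 5.17-fold (adjusted p = 0.000267). IFI16, a sensor of DNA in the nucleus and cytoplasm, rose by 0.32, to 12.98 ± 0.0633 after HHT, against 12.66 ± 0.0912 after vehicle (adjusted p = 0.00167).

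Enzymes that act on double-stranded RNA were divided. The oligoadenylate synthetases, which make a small nucleotide messenger when they meet double-stranded RNA, rose in all 3 of their members, and so did the related OASL, which lacks that activity. OAS2 was at 8.02, 8.00 and 8.29 after HHT, against 5.23, 5.95 and 6.06 after vehicle, a rise of 2.36, or 5.13-fold (SE 0.258, adjusted p = 2.67e-05). OAS1 was at 8.18, 8.26 and 8.24 after HHT, against 6.63, 5.72 and 6.44 after vehicle, 3.89-fold higher (adjusted p = 6.68e-05). OASL was at 8.78, 8.57 and 8.52 after HHT, against 7.54, 7.03 and 6.62 after vehicle, 2.95-fold higher (adjusted p = 0.000173). For these 3 genes the vehicle arrays were spread more widely than the HHT arrays, and the groups did not overlap. OAS3 rose by 0.72, to 7.93 ± 0.0215 after HHT, against 7.20 ± 0.236 after vehicle (adjusted p = 0.00563).

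The other two enzymes of that group were at nearly the same level in both groups. EIF2AK2 (PKR), the kinase that halts translation by phosphorylating eIF2-alpha, had 11.94, 11.88 and 11.83 after HHT and 11.75, 11.88 and 11.74 after vehicle. The change of 0.09 had a 95% interval of -0.05 to 0.24 (adjusted p = 0.263). ADAR, which edits adenosine to inosine in double-stranded RNA, had 11.67, 11.56 and 11.68 after HHT and 11.65, 11.48 and 11.43 after vehicle, a change of 0.11 (95% interval -0.05 to 0.28, adjusted p = 0.24). Both intervals end below 0.72, the change of OAS3 and the smallest rise among the OAS genes. Equal medians put both past the threshold, at 0.33 for EIF2AK2 (adjusted p = 0.0173) and 0.35 for ADAR (adjusted p = 0.0144).

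The IFIT family, some of whose proteins bind foreign RNA by its 5′ end and keep it from the ribosome, rose in all 4 members measured. IFIT2 was at 11.51, 11.44 and 11.34 after HHT, against 8.85, 8.94 and 9.00 after vehicle, 5.66-fold higher (log2 change 2.50, SE 0.0824, adjusted p = 1.96e-08). IFIT5 was at 7.70, 8.42 and 8.16 after HHT, against 6.12, 6.00 and 5.70 after vehicle, 4.45-fold higher (adjusted p = 3.04e-05). IFIT1 was at 11.23, 11.11 and 11.14 after HHT, against 9.11, 9.03 and 9.17 after vehicle, 4.16-fold higher (adjusted p = 3.85e-08). No HHT array of these 3 genes came within 1.5 units of a vehicle array. IFIT3 rose by 1.55, to 11.45 ± 0.136 after HHT, against 9.90 ± 0.0748 after vehicle (adjusted p = 2.90e-07). IFIT2 and IFIT3 are neighbours in the RefSeq gene order, as are IFIT1 and IFIT5, whose promoters are shown above.

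None of the dynamin-like GTPases tested was called. MX1, which traps viral nucleocapsids, had 6.22, 6.06 and 5.69 after HHT and 5.49, 5.54 and 1.32 after vehicle, and its array values are given because vehicle array 3 stands apart. The vehicle mean of MX1 is below the level of 4.80. The change was 1.87 with a 95% interval of -0.32 to 4.07 (adjusted p = 0.149), and 0.47 without that array (adjusted p = 0.339). MX2, its paralogue, averaged 6.19 ± 0.212 after HHT and 6.03 ± 0.221 after vehicle (adjusted p = 0.701). GBP2, a guanylate-binding protein that attacks membranes of intracellular pathogens, averaged 5.26 ± 0.0672 after HHT and 5.07 ± 0.853 after vehicle (adjusted p = 0.795). Its relative GBP1 was not tested.

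**Figure D4:**
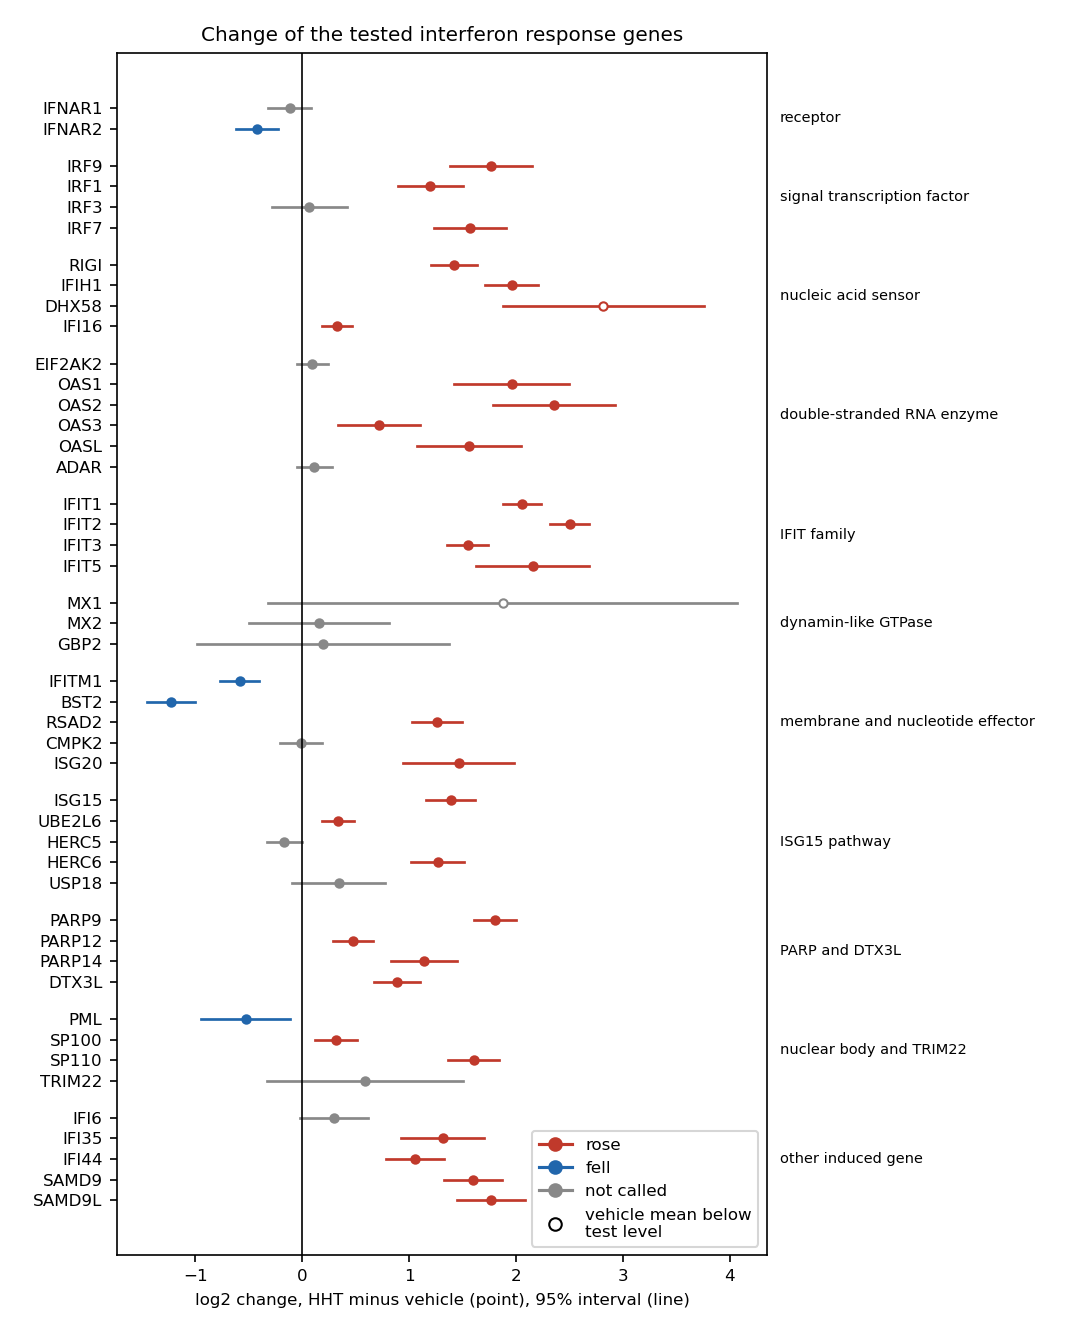
Log2 change, HHT minus vehicle (point), with its 95% interval (line) for the 46 tested interferon response genes, ordered by role. Open points mark DHX58 and MX1, whose vehicle means lie below the test's level. With that level in place of dimmer arrays, DHX58 was 5.17-fold higher after HHT. Among the others IFIT2 has the highest change (2.50) and BST2 the lowest (-1.23).

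Effectors at membranes and on nucleotides moved both ways. BST2 (tetherin), which ties budding virions to the cell surface, fell by 1.23, or 2.34-fold (SE 0.102, adjusted p = 3.91e-06). It was at 8.48, 8.47 and 8.40 after HHT, against 9.55, 9.72 and 9.75 after vehicle, and it fell in every setting tried. IFITM1, which blocks fusion of viral and cell membranes, fell by 0.59, to 12.49 ± 0.127 after HHT, against 13.08 ± 0.132 after vehicle (adjusted p = 0.000166). With equal medians its change was -0.35 (adjusted p = 0.0545). Its near-identical paralogues IFITM2 and IFITM3, which are not on the list and may share probes with it, fell by 0.21 and 0.34 (adjusted p = 0.0139 and 0.000815). Both of these calls were lost under 3 other scalings, where IFITM2 turned to between 0.03 and 0.09, and IFITM2 also lost its call without HHT array 1 or HHT array 2 (adjusted p = 0.0611 and 0.0684).

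ISG20, an exonuclease of single-stranded RNA, was at 7.52, 7.39 and 7.17 after HHT, against 5.71, 5.94 and 6.05 after vehicle, 2.76-fold higher (adjusted p = 0.000432). RSAD2 (viperin), which turns CTP into a chain terminator, was at 9.93, 9.83 and 9.84 after HHT, against 8.59, 8.76 and 8.47 after vehicle, 2.39-fold higher (adjusted p = 4.07e-06). Both were higher on every HHT array. CMPK2, the nucleotide kinase encoded beside RSAD2, averaged 11.32 ± 0.0993 after HHT and 11.34 ± 0.149 after vehicle. Its change was -0.01 (95% interval -0.21 to 0.18, adjusted p = 0.916), and its sign depended on the scaling (0.23 with equal medians).

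The ubiquitin-like modifier ISG15 and its conjugation machinery rose in part. ISG15 was at 10.38, 10.21 and 10.40 after HHT, against 8.91, 9.09 and 8.82 after vehicle, 2.62-fold higher (SE 0.102 on the log2 scale, adjusted p = 1.70e-06). UBE2L6, the enzyme that carries ISG15 to its ligase, was at 10.70, 10.67 and 10.71 after HHT, against 10.40, 10.35 and 10.32 after vehicle, a rise of 0.33 (adjusted p = 0.00234). HERC6, a ligase that conjugates ISG15 in mouse, was at 10.14, 9.97 and 10.11 after HHT, against 8.59, 8.91 and 8.92 after vehicle, a rise of 1.27 (adjusted p = 5.79e-06). In these 3 genes the groups were apart on every array. HERC5, the main human ISG15 ligase and the neighbour of HERC6, averaged 11.03 ± 0.113 after HHT and 11.20 ± 0.0385 after vehicle. Its change was -0.17 (adjusted p = 0.0873). HERC5 was called lower with quantile normalization (-0.24, adjusted p = 0.0219) and with array weights (-0.21, adjusted p = 0.0473), and its change was 0.07 with equal medians. USP18, which removes ISG15 and restrains signalling at IFNAR2, averaged 7.41 ± 0.217 after HHT and 7.06 ± 0.159 after vehicle, a change of 0.34 (adjusted p = 0.182), and was called with equal medians (0.58, adjusted p = 0.0460).

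The ADP-ribosylation genes of the response all rose. PARP9 was at 10.45, 10.35 and 10.38 after HHT, against 8.64, 8.51 and 8.63 after vehicle, 3.49-fold higher (SE 0.0895 on the log2 scale, adjusted p = 1.50e-07). DTX3L, the ubiquitin ligase that works in a complex with PARP9 and is encoded next to it, was at 11.33, 11.22 and 11.40 after HHT, against 10.29, 10.64 and 10.39 after vehicle, a rise of 0.88 (adjusted p = 2.82e-05). Both partners were higher on all HHT arrays. PARP14, a mono-ADP-ribosyltransferase, was at 8.91, 8.96 and 8.83 after HHT, against 7.75, 7.57 and 7.96 after vehicle, a rise of 1.14 (adjusted p = 5.48e-05). With the mean of its probe sets the change was 0.43 (adjusted p = 0.174), since another probe set changed by -0.28. PARP12, which restrains viral replication, rose by 0.47, to 9.81 ± 0.0463 after HHT, against 9.33 ± 0.0385 after vehicle (adjusted p = 0.000903).

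Genes of nuclear bodies did not move together. SP110 was at 10.05, 9.79 and 9.82 after HHT, against 8.27, 8.34 and 8.24 after vehicle, 3.04-fold higher (SE 0.107 on the log2 scale, adjusted p = 8.81e-07). SP100, its relative in these bodies, was at 9.64, 9.70 and 9.57 after HHT, against 9.34, 9.26 and 9.37 after vehicle, a rise of 0.31 (adjusted p = 0.0145). The call for SP100 was lost without HHT array 2 (0.28, adjusted p = 0.0669), with quantile normalization (0.21, adjusted p = 0.0923) and with the mean of its probe sets (0.36, adjusted p = 0.198). PML, the protein that builds the bodies, was at 8.38, 8.13 and 7.60 after HHT, against 8.52, 8.51 and 8.68 after vehicle, a fall of 0.53 that barely passed the threshold (SE 0.188, adjusted p = 0.0395). All HHT arrays of PML were lower, and array 3 was the lowest. Equal medians gave -0.29 (adjusted p = 0.21), and the call was also lost with equal hybridisation controls, with no filter, without the variance trend and with the mean of probe sets. It was lost in 5 of 6 fits to the other 5 arrays: the adjusted p was 0.0643 without HHT array 2, 0.128 without HHT array 3, 0.0715 without vehicle array 1, 0.0736 without vehicle array 2 and 0.109 without vehicle array 3. TRIM22, a ubiquitin ligase with antiviral activity, averaged 5.81 ± 0.470 after HHT and 5.22 ± 0.286 after vehicle (adjusted p = 0.275).

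Among the remaining induced genes, 4 of 5 tested rose. SAMD9L was at 8.99, 9.01 and 8.98 after HHT, against 7.36, 7.31 and 7.01 after vehicle, 3.40-fold higher (SE 0.142 on the log2 scale, adjusted p = 3.09e-06). SAMD9, its neighbour, was at 10.55, 10.60 and 10.54 after HHT, against 9.11, 9.13 and 8.66 after vehicle, 3.02-fold higher (adjusted p = 2.37e-06). These paralogues restrain growth and translation in blood cells. IFI35, a partner of NMI, was at 8.34, 8.44 and 8.38 after HHT, against 6.75, 7.25 and 7.23 after vehicle, a rise of 1.31 (adjusted p = 0.000119). IFI44 rose by 1.06, to 8.93 ± 0.0485 after HHT, against 7.87 ± 0.106 after vehicle (adjusted p = 3.77e-05). IFI6, a protein of the endoplasmic reticulum and mitochondria, averaged 8.97 ± 0.156 after HHT and 8.67 ± 0.238 after vehicle and was not called (change 0.30, adjusted p = 0.113). Without vehicle array 2, IFI6 was called, with a change of 0.43 (adjusted p = 0.0279).

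The genes below the test's level include some that are widely used as marks of an interferon response. IFI44L, the neighbour of IFI44, had 0.95, 2.45 and 1.95 after HHT and 4.06, 4.92 and 2.45 after vehicle. CXCL10, the chemokine of the list, had 5.77, 5.40 and 5.46 after HHT and 3.15, 5.43 and 2.68 after vehicle. For IFI44L the difference of means was -2.03 on dim signals, with the highest HHT array just below the lowest vehicle array. The groups of CXCL10 overlap, with a difference of means of 1.79. IFI27, a mitochondrial protein, had 3.89, 4.26 and 4.06 after HHT and 2.62, 3.10 and 4.76 after vehicle. The probe sets that stand for GBP1, XAF1 and EPSTI1 overlapped between the groups as well, with array values between 3.85 and 5.46 after HHT and between 1.52 and 5.66 after vehicle. No change is called for these 6 genes.

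Of the 52 genes, 29 had more than 1 probe set and 21 had another one that was bright enough to test. Among the genes that rose, 13 had another probe set that also rose, while the other tested probe sets of OAS1, PARP9, PARP14 and IFI44 were not called. Of the tested probe sets, 0 genes had some called in opposite directions. No such share over all genes is given here, so these counts have no background to be set against. RIGI rose by 1.87 and 2.29 on its other probe sets, and SP110 by 1.55, 1.37 and 1.40 on 3 of 4 others. SAMD9L rose by 2.27 and 3.43 on its others, the last being at least 3.93-fold with the level of 4.80 in place of dimmer arrays. Some probe sets did not follow the one that stands for the gene. IFIH1 rose by 1.10 on 1 other and changed by -0.09 on the last, OAS2 by 0.16 and PARP9 by -0.17 on probe sets that were not called. With the mean of all its tested probe sets IFIH1 rose by 0.99, OAS2 by 1.52 and PARP9 by 0.82, all still called. Some dim probe sets were left untested although their groups were far apart. For IFIT5 the other probe set had 7.18, 6.54 and 6.29 after HHT, against 2.52, 2.28 and 1.32 after vehicle, and for ISG20 it had 6.09, 6.47 and 6.52 after HHT, against 2.01, 2.86 and 2.93 after vehicle. For OAS3 it ran the other way, at 3.26, 3.75 and 2.62 after HHT, against 5.83, 5.56 and 6.18 after vehicle. PML had 10 probe sets, of which 2 others fell, by 0.73 and 0.95, and 0 rose.

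**Figure D5:**
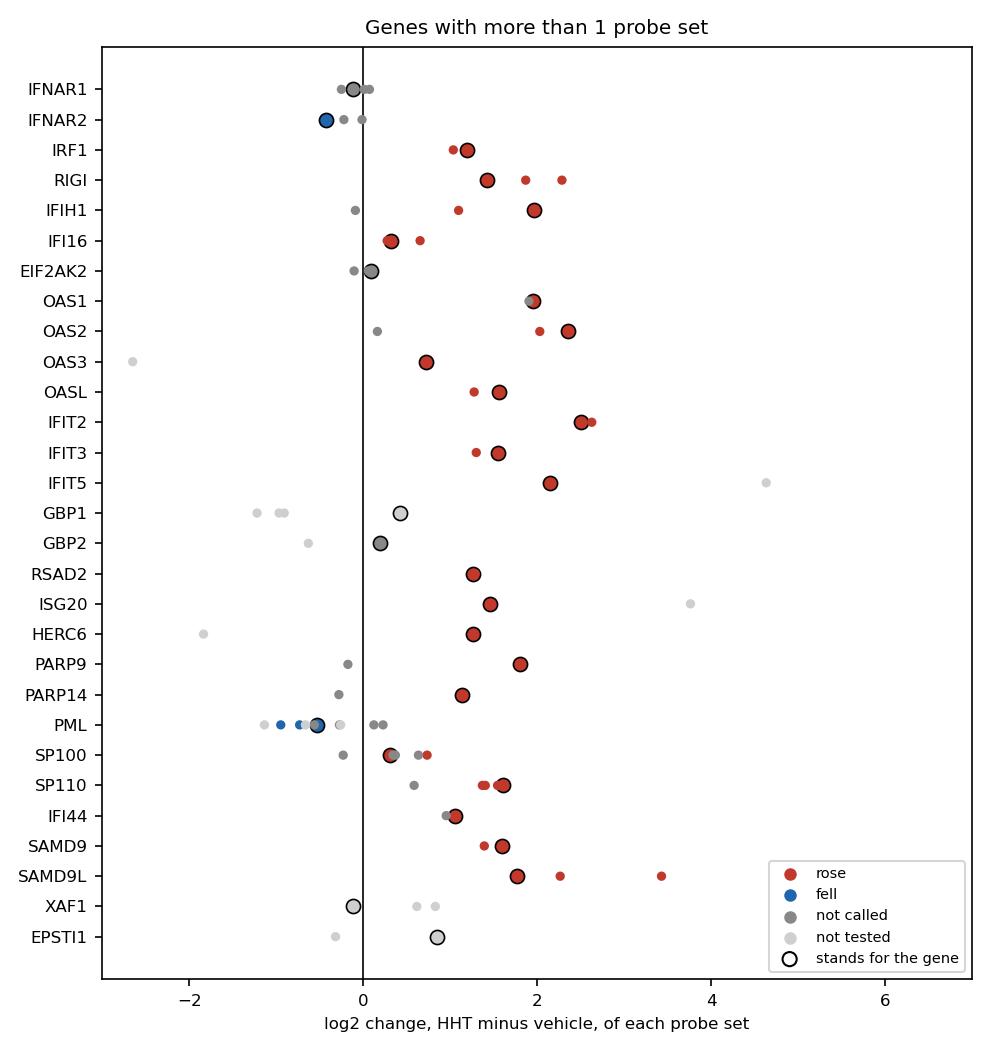
Log2 change, HHT minus vehicle (horizontal axis), of every probe set of the 29 genes with more than 1, coloured by its call, with a ring around the probe set that stands for the gene. Pale points are dim probe sets that were not tested, and their positions rest at least in part on signals below the test's level. For the outlying points of IFIT5 and ISG20 only the vehicle arrays lay below it, and for that of OAS3 only the HHT arrays.

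A further list of 84 genes of the pathway, none of them among the 54, was written from general knowledge. Earlier results of these data were known by then, so it is no independent comparison for the 54. Of these 76 had a probe set of their own and 54 were tested: 21 rose, 14 fell and 19 were not called, with a median change of 0.12. These shares are nearer to those of all genes, at 29.6% and 24.2%, than those of the 46 are. The interferons themselves were dim. Of 8 interferon genes with a probe set 7 were below the test's level, and IFNL2 was not called (change -0.03, adjusted p = 0.962). IFNB1, which encodes interferon beta, had 4.57, 3.73 and 2.35 after HHT and 4.44, 4.93 and 3.78 after vehicle.

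Parts of the chain between the sensors and the interferon genes changed in different directions. STING1, the adaptor of the cytosolic DNA pathway, rose by 0.99, to 10.21 ± 0.0225 after HHT, against 9.22 ± 0.0571 after vehicle (adjusted p = 3.84e-06). Its other probe set changed by 0.16 without a call, and the mean of both rose by 0.58. TBK1, the kinase that activates IRF3, rose by 0.42, to 11.98 ± 0.125 after HHT, against 11.55 ± 0.109 after vehicle (adjusted p = 0.00145). JAK1 rose by 0.27 (adjusted p = 0.0066), to 11.94 ± 0.0652 after HHT, against 11.68 ± 0.0735 after vehicle, and was not called without the variance trend (adjusted p = 0.0555). TYK2 and MAVS, the adaptor of RIG-I and MDA5, were not called (changes 0.14 and 0.13, adjusted p = 0.176 and 0.451), though both were with equal hybridisation controls (0.42 and 0.41). Another probe set of MAVS fell by 0.58 (adjusted p = 0.0026), and the mean of its probe sets changed by -0.22. The DNA sensor CGAS and the RIG-I ubiquitin ligase TRIM25, both singled out after their values were seen, fell by 0.65 and 0.72 (adjusted p = 0.00338 and 4.10e-05). CGAS lost its call with equal medians (change -0.41, adjusted p = 0.0868), and scaling to the hybridisation controls gave -0.36 (adjusted p = 0.0579). TRIM25 lost its call with the mean of its probe sets (-0.15, adjusted p = 0.511), as its other probe set changed by 0.43.

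The largest rises of that further list were in TRIM38, CMTR1, GBP3 and TNFSF10. TRIM38, a ubiquitin ligase that tunes innate signalling, rose by 1.52, to 10.93 ± 0.0368 after HHT, against 9.41 ± 0.126 after vehicle (adjusted p = 3.17e-07). CMTR1, the cap methyltransferase that marks messenger RNA as self, rose by 1.36, to 10.24 ± 0.182 after HHT, against 8.89 ± 0.115 after vehicle (adjusted p = 3.82e-06). GBP3 rose by 1.25 and TNFSF10, the death ligand TRAIL, by 1.21 (adjusted p = 0.00068 and 0.00119). The largest falls were in TRIM14, LGALS9, WARS1 and ZC3HAV1. TRIM14, an adaptor of the mitochondrial signalling complex, fell by 1.52, to 9.81 ± 0.108 after HHT, against 11.32 ± 0.0309 after vehicle (adjusted p = 1.83e-07). ZC3HAV1, which marks CpG-rich viral RNA for decay, fell by 0.76, and the tryptophanyl-tRNA synthetase WARS1 by 0.82 (adjusted p = 5.91e-05 and 1.33e-05). LGALS9, which encodes galectin-9, fell by 0.91 (adjusted p = 0.0067).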

How the data were processed

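Total RNA of 6 Kasumi-1 samples was labelled with biotin by 3′ in vitro transcription and hybridised to 1-colour Affymetrix arrays, per the labels' protocols. Each probe set has 1 deposited log2 signal per array, made with MAS5 per the submitters' processing notes, which give no version. The antilog signals have a trimmed mean near 500.06 on each array, and values stop at 0. No detection calls were used, so a low level is a signal and no proof of expression. Precision is limited by the number of arrays.

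The 62 control probe sets and the 40% of the other 54613 with the lowest mean were left out. The remaining 32768 were fitted with limma 3.58.1 in R 4.3.3 (lmFit, eBayes with a variance trend), HHT against vehicle, with Benjamini-Hochberg adjustment. The test was tried on simulated data first. Of the probe sets annotated to a single gene, the one with the highest mean stood for that gene, after symbols were updated through Entrez IDs. No genome build is given for the array in the sources used here.

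The 54 genes, the further list and the roles were chosen with earlier results of these data known. Array values are printed for at most the 3 called genes of largest change in each role and for 10 fixed genes, of which STAT2 has none. Outside that rule they are printed for MX1, IFI44L, CXCL10, IFI27, IFNB1 and other probe sets of IFIT5, ISG20 and OAS3. Of the further list, the 4 largest called rises and falls and a few fixed genes are named, and besides them IFITM2, IFITM3, IFNL2, CGAS and TRIM25. Alternatives were pseudocounts of 1 and 64, 3 other scalings, other filters, variance models, thresholds and probe set rules, a replicate block, and leaving out each array. No label says that replicate numbers pair the samples. Deviations of same-numbered arrays correlated at 0.0655, -0.0141 and 0.0491, and those of differently numbered arrays between -0.0887 and 0.0424. With so few arrays this can neither show nor exclude a pairing.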

Additional observations from a re-analysis of the deposited data

How the results depend on the processing

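Each gene was followed through the 18 alternatives that left the threshold as it was. Of the 46 tested genes, 28 kept their direction and side of the threshold in all 18, and these are 28 of the 34 called. A further 4 (DHX58, MX1, MX2 and TRIM22) did so wherever they were tested but did not pass the stricter filter on low signals, which thus lost the call for DHX58. The number that rose was 30, and between 28 and 35 under every alternative except the added threshold of an absolute log2 change of 1, which left 24. That threshold, not among the 18, lost the calls of DTX3L, IFI16, OAS3, PARP12, SP100 and UBE2L6. Scaling the arrays to equal medians gave 34, to equal hybridisation controls 35, and quantile normalization 29. The genes added by equal medians were ADAR, EIF2AK2, IFI6 and USP18, and hybridisation controls added CMPK2 to these. The number that fell was 4, against 1 with equal medians (BST2), 2 with equal hybridisation controls, 2 with the mean of probe sets, 1 with the added threshold, and 3 to 5 otherwise. Over all genes the main scaling called 4017 higher and 3280 lower, equal medians 5062 and 1718, and equal hybridisation controls 5640 and 1741. Those scalings moved the median of all genes to 0.24 and 0.28 and that of the 46 genes to 1.41 and 1.45. Leaving out each array gave 29 to 31 rises and 3 to 4 falls among them.

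In the further list 21 rose and 14 fell. The rises were 7 with the added threshold and 20 to 21 when an array was left out. The falls were 9 with equal medians, 8 with equal hybridisation controls, 1 with the added threshold and 12 to 15 when an array was left out. With the replicate block the list of 54 again had 30 rises and 4 falls, and the further list 21 and 14. Whether the numbers pair the arrays is not known, and that fit does not settle it.

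Changes of sign came from genes near 0. With equal medians and equal hybridisation controls the change was 0.12 and 0.16 for IFNAR1, 0.23 and 0.27 for CMPK2 (the last called, adjusted p = 0.0461), 0.070 and 0.11 for HERC5, and 0.028 and 0.072 for IFITM2, which was at 0.091 after quantile normalization. MAVS was at -0.22 with the mean of probe sets. Over the fits that left out an array, IRF3 ranged from -0.0082 (without vehicle array 3) to 0.138, GBP2 from -0.279 (without vehicle array 3) to 0.553, and CMPK2 from -0.0701 to 0.0724 (without vehicle array 1). The cause was not tested.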
